A study of Mus musculus with 6 samples.

Results

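The core cardiac and second heart field factors are transcription factors, and a cofactor of them, on which the formation of the heart depends. Their transcripts were measured here in the outflow tract (OFT), the trunk of the embryonic heart that becomes the base of the aorta and of the pulmonary artery. The genes are *Gata4*, *Gata5*, *Gata6*, *Zfpm2*, *Hand1*, *Hand2*, *Nkx2-5*, *Mef2c* and *Isl1*. They were chosen by name, as the entries of the deposited count table whose Ensembl mouse identifiers map to these symbols, and the rule reads no measured value. The names themselves were listed with earlier results of these data known. The rule found 9 genes of the 28777 listed, and all 9 had more than 5 reads over the libraries and were tested.

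OFTs of E13.5 mouse embryos were profiled by bulk RNA-Seq in 6 libraries, 3 labelled mutant and 3 labelled wildtype. The mutant label stands for *Notch1*+/-*; Nos3*-/- embryos, in which 1 allele of the receptor gene *Notch1* and both alleles of the endothelial nitric oxide synthase gene *Nos3* are disrupted in every cell, and the wildtype label for littermates with intact alleles. Both came from colonies on a C57/BL6J background. Each library pools 3 OFTs cut off beneath the conal cushions, 18 OFTs in all, so that it averages over embryos and over every cell type of the piece. The comparison asks how the OFT transcriptome differs between these genotypes.

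In heart development, GATA, HAND, NK2 and MEF2 proteins bind the regulatory DNA of the same cardiac genes and raise each other's expression, so that they are often described as a network with many loops. The second heart field is the pool of progenitor cells behind the early heart tube, marked by Isl1 and also needing Mef2c, Hand2 and GATA factors, from which the OFT wall grows. As these cells join the OFT and turn into muscle, Isl1 is switched off, while Nkx2-5 and Mef2c stay on in the myocardium.

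Depth was 44387490, 43329291 and 34729103 counts in wildtype replicates 1, 2 and 3, and 38640033, 35551470 and 36917298 counts in mutant replicates 1, 2 and 3. Levels are given as CPM, the counts per 1000000 of a library's total after TMM scaling, always in the order of these replicates. A gene at the floor of 3 counts would stand at 0.0675 to 0.0924 CPM, and all 9 factors were above it in every library. Fold changes are log2 values of the mutant against the wildtype label from edgeR with their standard errors (SE), and a gene was called where its p, adjusted over the 28157 genes that were tested, was 0.05 or less. Groups are said not to overlap where every library of one label lies above every library of the other.

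The targeted genes were read first, as a check of the labels. *Notch1* stood at 74.3, 88.2 and 83.6 CPM under the wildtype label and at 155, 160 and 139 CPM under the mutant label. All 3 mutant-labelled libraries were thus above all 3 others, although the label names the loss of an allele. The log2 fold change was 0.89 ± 0.10 (SE), called by edgeR at an adjusted p of 0.0313, which ran from 6.44e-11 to 0.339 over 17 alternative settings. *Nos3* stood at 31.8, 47.2 and 48.1 CPM under the wildtype label and at 22.1, 22.0 and 20.4 CPM under the mutant label. It was lower in all 3 mutant-labelled libraries, the direction that its label names, with a log2 fold change of −0.98 ± 0.15 (SE). For *Nos3* the adjusted p was 0.128 by edgeR and 9.42e-06 by DESeq2, between 9.42e-06 and 0.584 over 17 alternatives, and 0.00176 by edgeR without wildtype replicate 1. From which exons or alleles the counts of *Notch1* and *Nos3* came was not examined. Because the *Notch1* counts went opposite to the loss that the label names, the groups are called by their labels.

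Of the wildtype-labelled libraries, replicate 1 lay nearest to the mutant-labelled ones and replicate 3 farthest from them. Distances are root mean square log2 differences over the 16655 genes whose mean was 1 CPM or more. For wildtype replicate 1 they were 0.41 and 0.48 to wildtype replicates 2 and 3, and 0.34, 0.37 and 0.33 to mutant replicates 1, 2 and 3. It was thus nearer to each mutant-labelled library than to either library of its own label. Wildtype replicate 3 was at 0.35 from wildtype replicate 2, and at 0.54, 0.60 and 0.44 from mutant replicates 1, 2 and 3. For 6 of the 9 factors (*Gata4*, *Gata5*, *Gata6*, *Hand1*, *Nkx2-5* and *Isl1*, 66.7%) wildtype replicate 1 was the library of its label that lay farthest toward the mutant-labelled side, as it was for 9238 of the 16655 genes (55.5%). Results are therefore also given without that library. Each library was left out in turn by plan, but reading this one beside each result was chosen after seeing the data. For genes where wildtype replicate 1 lies farthest toward the mutant-labelled side, leaving it out widens the difference and narrows the wildtype range by construction. For other genes the difference can shrink, as for *Zfpm2* (log2 fold change −0.10 to −0.06) and *Notch1* (0.89 to 0.82). The calls made without it are therefore descriptions and not independent support. Without it edgeR called 2593 genes in place of 6, which is 9.45% of the genes tested in place of 0.0213%. With wildtype replicate 3 left out instead, edgeR called 2 genes. Which of the wildtype-labelled libraries is the unusual one was not tested.

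None of the 9 factors was called by edgeR (0 of 9, where 0.0213% of all genes were called, 0.0178% higher and 0.00355% lower), by DESeq2 (0 of 9, where 4.05% of the 18327 genes with a DESeq2 adjusted p were called, 2.24% higher and 1.81% lower) or by limma-voom (0 of 9, where 0.0178% of all genes were called, 0.0142% higher and 0.00355% lower). At an unadjusted p under 0.05 in edgeR there were 2 of 9, *Gata5* and *Nkx2-5*, where all genes gave 16.1%. Fitted values were higher under the mutant label for 6 of the 9 factors, where 51.2% of all genes were fitted higher, and lower for 3, *Zfpm2*, *Nkx2-5* and *Mef2c*, with *Zfpm2* at 0.01 when libraries were scaled by size only. The median log2 fold change of the factors was 0.18, beside 0.01 over all genes tested. It was 0.08 without wildtype replicate 3, 0.04 with the GC and length correction and, with the direction turned, −0.09 with the mean of the Myocardial markers as a covariate. That mean was itself lower in every mutant-labelled library. The covariate and the label are thus partly confounded, and values from that fit, given without errors, do not establish a turned direction. Scaling by library size alone moved the median of all genes to 0.11, a shift that the fold changes under that scaling share. Groups did not overlap for 3 of the 9, *Gata4* and *Gata5* (higher) and *Zfpm2* (lower), where 19.6% of all genes had groups that did not overlap (10.7% higher and 8.94% lower). Without wildtype replicate 1, edgeR called 3 of the 9, *Gata5* and *Hand1* higher (4.15% of all genes were called higher) and *Nkx2-5* lower (5.3% were called lower), and the median was 0.24 beside 0.02 over all genes. These 3 are among the 6 factors for which that library lay farthest toward the mutant-labelled side, and leaving out any other library gave 0 of 9. With the replicate number as a block, edgeR called 2 of the 9, *Nkx2-5* and *Isl1*, where 5.6% of all genes were called, 3.18% higher and 2.42% lower. The labels disagree on which library is wildtype replicate 2 and which is 3, and with these exchanged in the block both calls were lost (0 of 9, where 0.295% of all genes were called, 0.22% higher and 0.0746% lower). The log2 fold changes moved little, at −0.44 with either block for *Nkx2-5*, and from 0.63 to 0.61 with the exchange for *Isl1*.

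**Figure D1:**
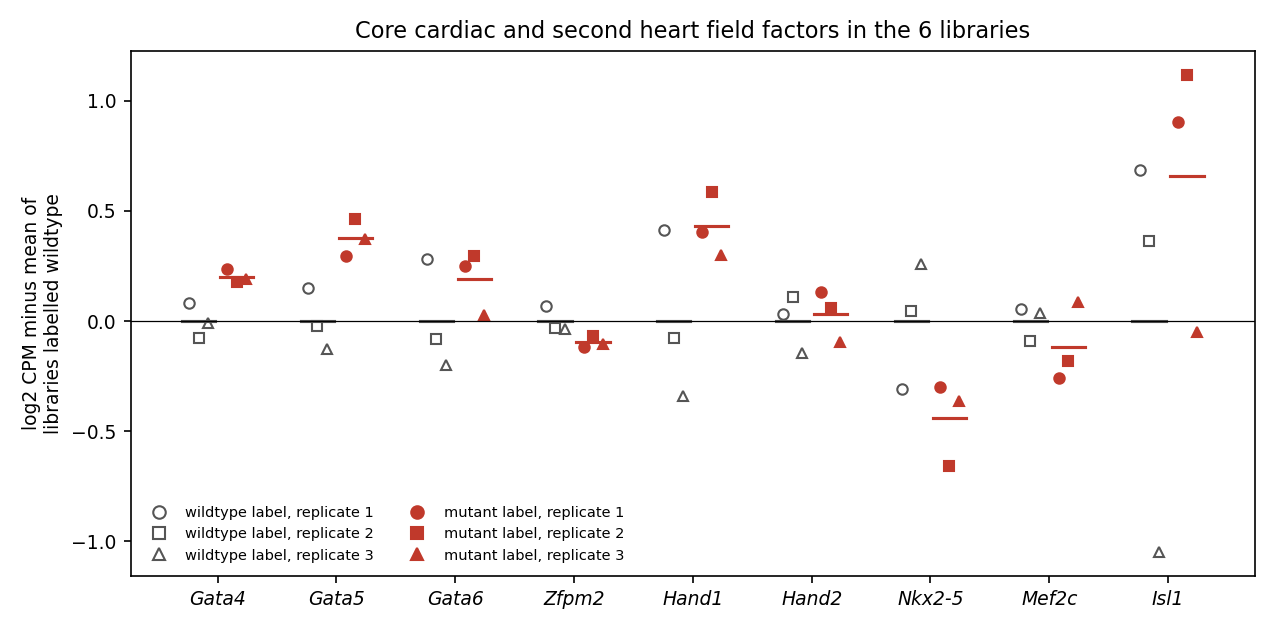
Each factor in each library, as log2 CPM minus the mean of the wildtype-labelled libraries (vertical axis, log2 units), with open points for the 3 libraries labelled wildtype, filled points for the 3 labelled mutant, a shape for each replicate number and a bar for each group's mean. *Gata4*, *Gata5* and *Zfpm2* have groups that do not overlap, and wildtype replicate 1 (open circle) lies within the range of the mutant-labelled libraries for the other 6 factors.

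The GATA zinc finger factors bind GATA motifs through a pair of zinc fingers. Gata4 (ENSMUSG00000021944, mm10 chr14:63198922-63271692, minus strand) acts in heart muscle, endocardium and cushion mesenchyme. *Gata4* stood at 264, 237 and 248 CPM under the wildtype label and at 294, 282 and 285 CPM under the mutant label, means of 250 ± 14.0 and 287 ± 6.40 CPM (SD, n = 3 each). All 3 mutant-labelled libraries were above all 3 wildtype-labelled ones, by a gap narrower than the range within the wildtype label. *Gata4* had a log2 fold change of 0.20 ± 0.09 (SE), with an adjusted p of 0.326 by edgeR and 0.226 by DESeq2 in a range of 0.0720 to 1 over 17 alternatives, the lowest of them without wildtype replicate 1. With the GC and length correction, alone or with the block, the log2 fold change of *Gata4* was 0.08.

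Gata5 (ENSMUSG00000015627, chr2:180325133-180334699, minus strand) is the GATA factor best known from the endocardium, and mice without it can form bicuspid aortic valves. *Gata5* stood at 26.1, 23.1 and 21.5 CPM under the wildtype label and at 28.8, 32.3 and 30.3 CPM under the mutant label, means of 23.5 ± 2.32 and 30.5 ± 1.74 CPM (SD, n = 3 each). The groups were separate, and wildtype replicate 1 was the wildtype-labelled library nearest to the others. Its log2 fold change was 0.37 ± 0.11 (SE), with an adjusted p of 0.195 by edgeR and 0.0736 by DESeq2. Without wildtype replicate 1 *Gata5* was called by edgeR, with a log2 fold change of 0.45 ± 0.09 (SE) and an adjusted p of 0.0267, in a range of 0.0267 to 1 over 17 alternatives. It was higher under the mutant label in all 17, from 0.20 with the mean of the Myocardial markers as a covariate to 0.47 with library size only.

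Gata6 (ENSMUSG00000005836, chr18:11052064-11085635, plus strand) acts in vascular smooth muscle and in the neural crest cells that divide the OFT. *Gata6* stood at 160, 125 and 115 CPM under the wildtype label and at 157, 162 and 135 CPM under the mutant label. Wildtype replicate 1 was level with the higher mutant-labelled libraries, while wildtype replicates 2 and 3 were below all 3 of them. For *Gata6* the log2 fold change was 0.18 ± 0.13 (SE), with an adjusted p of 0.533 by edgeR. When wildtype replicate 1 was left out it was 0.34 ± 0.10 (SE) with an adjusted p of 0.0628 by edgeR, in a range of 0.0628 to 1 over 17 alternatives, and with the mean of the Myocardial markers as a covariate it was −0.17. It was 0.08 without wildtype replicate 3 and 0.04 with the GC and length correction.

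Zfpm2, also called Fog2 (ENSMUSG00000022306, chr15:40655035-41104592, plus strand), binds the amino-terminal zinc finger of GATA factors and can turn them from activators into repressors. *Zfpm2* stood at 29.3, 27.3 and 27.2 CPM under the wildtype label and at 25.8, 26.6 and 26.0 CPM under the mutant label. Each mutant-labelled library was lower than each wildtype-labelled one, within a total span of 25.8 to 29.3 CPM. The fitted log2 fold change was −0.10 ± 0.09 (SE) and turned to 0.01 when libraries were scaled by size only, with an adjusted p of 0.638 by edgeR in a range of 0.400 to 1 over 17 alternatives. Without wildtype replicate 1 it was −0.06.

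Because Zfpm2 works by binding Gata4, and the GATA factors share motifs, their transcripts were also set against each other inside each library, where scaling has no part. The log2 ratio of *Gata4* to *Zfpm2* in CPM was 3.17, 3.11 and 3.19 under the wildtype label and 3.51, 3.40 and 3.46 under the mutant label. It was higher in all 3 mutant-labelled libraries, by 0.30, with an exact permutation p (two-sided) of 0.1, the smallest that 3 against 3 libraries allow, and 0.24 after adjustment over the 6 ratios computed. This was the 1 ratio of the 6 whose groups did not overlap, and without wildtype replicate 1 the difference was 0.31. The log2 ratio of *Gata4* to *Gata5* was 3.34, 3.36 and 3.53 under the wildtype label and 3.35, 3.12 and 3.23 under the mutant label, with overlap between the groups. For *Gata4* to *Gata6* the ratios were 0.72, 0.92 and 1.11 against 0.91, 0.80 and 1.08, and the mutant-labelled libraries lay inside the span of the others. The differences were −0.17 (exact permutation p = 0.2, adjusted 0.24) and 0.01 (exact permutation p = 1). When wildtype replicate 1 was left out they were −0.21, with groups that did not overlap, and −0.09, with the sign turned.

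Hand1 and Hand2 are bHLH factors that pair with E proteins, and Hand2 is needed in the second heart field and in neural crest of the OFT. *Hand1* (ENSMUSG00000037335, chr11:57828705-57832818, minus strand) stood at 13.1, 9.30 and 7.73 CPM under the wildtype label and at 13.0, 14.7 and 12.1 CPM under the mutant label. Wildtype replicate 1 was among the mutant-labelled libraries, and wildtype replicates 2 and 3 were below all of them. *Hand1* had a log2 fold change of 0.40 ± 0.18 (SE), with an adjusted p of 0.320 by edgeR and 0.246 by DESeq2. With wildtype replicate 1 left out edgeR called *Hand1* at 0.64 ± 0.14 (SE) with an adjusted p of 0.0303, in a range of 0.0303 to 1 over 17 alternatives. The value was 0.24 without wildtype replicate 3 and −0.09 with the mean of the Myocardial markers as a covariate.

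*Hand2* (ENSMUSG00000038193, chr8:57320983-57324633, plus strand) stood at 76.7, 80.9 and 67.8 CPM under the wildtype label and at 82.3, 78.2 and 70.3 CPM under the mutant label. The groups overlapped, with replicate 3 the lowest library of each label. *Hand2* had a log2 fold change of 0.03 ± 0.10 (SE), with an adjusted p of 0.910 by edgeR in a range of 0.590 to 1, and its sign turned in 5 of 17 alternatives, whose values went down to −0.17. Inside each library the log2 ratio of *Hand1* to *Hand2* was −2.56, −3.12 and −3.13 under the wildtype label and −2.67, −2.41 and −2.54 under the mutant label. Only wildtype replicate 1 kept the groups of this ratio from separating. The difference was 0.40 (exact permutation p = 0.2, adjusted 0.24), and 0.59 without that library, a setting of the ratios chosen after seeing the data.

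Nkx2-5 is the homeobox factor of the cardiac muscle lineage, and it works with Gata4 and Tbx5 on myocardial genes. *Nkx2-5* (ENSMUSG00000015579, chr17:26838664-26845009, minus strand) stood at 60.9, 77.8 and 90.0 CPM under the wildtype label and at 61.2, 47.8 and 58.5 CPM under the mutant label, means of 76.2 ± 14.6 and 55.8 ± 7.08 CPM (SD, n = 3 each). Wildtype replicates 2 and 3 were above all other libraries, and wildtype replicate 1 was level with mutant replicate 1. In edgeR the log2 fold change was −0.45 ± 0.15 (SE), with an adjusted p of 0.223 by edgeR and 0.0819 by DESeq2. It was called by edgeR without wildtype replicate 1, at −0.59 ± 0.12 (SE) with an adjusted p of 0.0242. It was also called by edgeR with the replicate block, at −0.44 with an adjusted p of 0.0439. With wildtype replicates 2 and 3 exchanged in the block the value was again −0.44, with an adjusted p of 0.224. Over 17 alternatives the adjusted p of *Nkx2-5* ran from 0.00266 to 1 and the log2 fold change from −0.59 to −0.03, the latter with the mean of the Myocardial markers as a covariate.

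Mef2c is a MADS factor that is on in the second heart field and in heart muscle, where it drives contractile genes. *Mef2c* (ENSMUSG00000005583, chr13:83504034-83667080, plus strand) stood at 76.3, 69.1 and 75.4 CPM under the wildtype label and at 61.5, 64.8 and 78.1 CPM under the mutant label. Mutant replicates 1 and 2 were the lowest libraries and mutant replicate 3 the highest of all. With all libraries the log2 fold change was −0.11 ± 0.11 (SE), with an adjusted p of 0.655 by edgeR in a range of 0.186 to 1. It was 0.04 with the mean of the Myocardial markers as a covariate, −0.01 with library size only, and between −0.22 (without mutant replicate 3) and −0.04 (without mutant replicate 1) with a library left out. The log2 ratio of *Mef2c* to *Nkx2-5* was 0.33, −0.17 and −0.26 under the wildtype label and 0.01, 0.44 and 0.42 under the mutant label, with wildtype replicate 1 among the mutant-labelled libraries. The difference was 0.32 (exact permutation p = 0.2, adjusted 0.24), and 0.50 without wildtype replicate 1.

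Isl1 is the LIM homeobox factor that marks second heart field progenitors and is also made by some neurons. *Isl1* (ENSMUSG00000042258, chr13:116298281-116309689, minus strand) stood at 9.52, 7.61 and 2.87 CPM under the wildtype label and at 11.1, 12.9 and 5.73 CPM under the mutant label. Replicate 3 was by far the lowest library of each label, and mutant replicate 3 was below wildtype replicates 1 and 2. *Isl1* had the widest spread of the 9 factors relative to its mean, 6.66 ± 3.42 CPM under the wildtype label and 9.89 ± 3.71 CPM under the mutant label (SD, n = 3 each). *Isl1* had a log2 fold change of 0.56 ± 0.38 (SE), with an adjusted p of 0.494 by edgeR and 0.621 by DESeq2. With the replicate block edgeR called it at 0.63 with an adjusted p of 0.0270, in a range of 0.0167 to 0.850 over 17 alternatives. With wildtype replicates 2 and 3 exchanged in the block the call was lost, at 0.61 with an adjusted p of 0.469. The log2 fold change of *Isl1* was 0.90 ± 0.41 (SE) without wildtype replicate 1. It came to 0.21 when wildtype replicate 3 was left out and to 0.33 when mutant replicate 2 was. With the mean of the Myocardial markers as a covariate its direction turned, to −0.91.

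The ratio of *Isl1*, the progenitor factor, to *Nkx2-5*, the muscle lineage factor, moved more widely than the other ratios computed. Its log2 values were −2.68, −3.35 and −4.97 under the wildtype label and −2.46, −1.89 and −3.35 under the mutant label. Mutant replicates 1 and 2 had the highest values and wildtype replicate 3 the lowest, and mutant replicate 3 was level with wildtype replicate 2. The difference was 1.10, with an exact permutation p of 0.2 and 0.24 after adjustment, and 1.59 without wildtype replicate 1. Without that library 5 of the 6 ratios had groups that did not overlap, where 42.7% of all genes had groups that did not overlap, and the smallest exact permutation p that 2 against 3 libraries allow was 0.2.

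**Figure D2:**
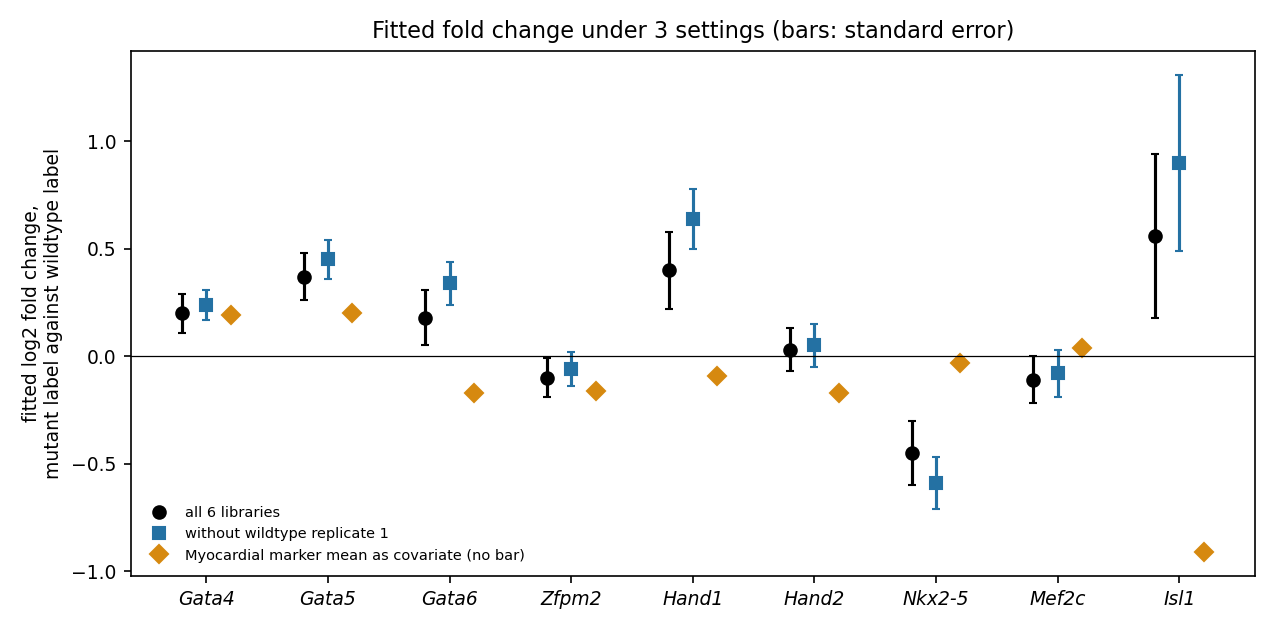
Fitted log2 fold change of each factor, mutant against wildtype label (vertical axis, log2 units), with all 6 libraries (black), without wildtype replicate 1 (blue) and with the mean of the Myocardial markers as a covariate (orange), with bars for the standard error of the first 2. With the covariate *Gata6*, *Hand1*, *Hand2*, *Mef2c* and *Isl1* change sign and *Nkx2-5* stands at −0.03, and *Zfpm2*, drawn below 0, turned to 0.01 when libraries were scaled by size only. The covariate is itself lower in every mutant-labelled library and so partly confounded with the label.

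The levels of the 9 factors were compared with each other as CPM per kilobase of annotated exon, as means over the 6 libraries. *Gata4* was the most abundant at 68.7 ± 5.79 (SD, n = 6), and its lowest library was above the highest of any other factor. *Nkx2-5* at 38.4 ± 8.84 and *Hand2* at 32.3 ± 2.47 came next. Their ranges overlapped, and *Nkx2-5* was above *Hand2* in 5 of the 6 libraries, the exception being mutant replicate 2. Their means were 44.4 and 32.0 under the wildtype label and 32.5 and 32.7 under the mutant label, where mutant replicate 2 (27.8 against 33.2) set the order. *Gata6* at 21.9 ± 3.12 overlapped with neither of its neighbours in this order. *Gata5* at 8.24 ± 1.29 was above *Hand1* at 5.83 ± 1.31 in all 6 libraries, but their ranges overlapped. The ranges of *Hand1* and of *Mef2c* at 4.51 ± 0.431 also overlapped, with *Hand1* above in 5 of 6 libraries. *Zfpm2* at 2.84 ± 0.133 was below *Mef2c* throughout and above *Isl1* at 2.09 ± 0.923 in 4 of 6 libraries, with overlapping ranges. With the longest annotated transcript as the length, 4 of the 9 kept their place, since *Gata6* then passed *Hand2* and *Mef2c* passed *Gata5* and *Hand1*. All 9 kept it without wildtype replicate 1, a setting of the order chosen after seeing the data.

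**Figure D3:**
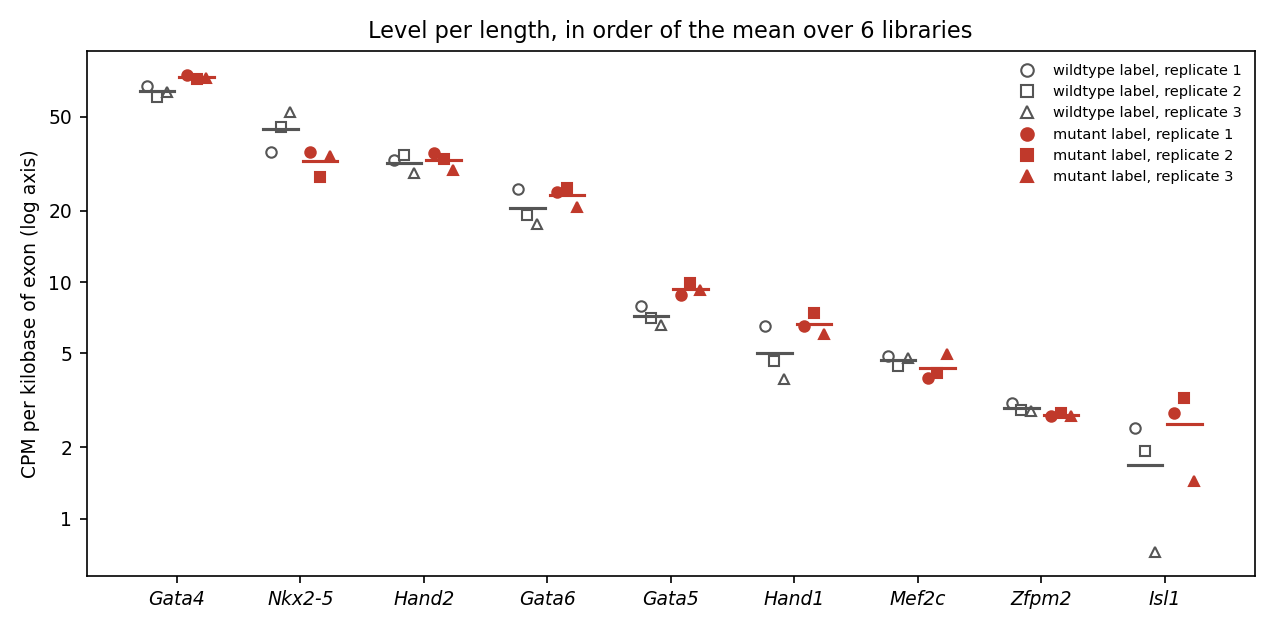
Level of each factor in CPM per kilobase of exon (vertical axis, log scale), ordered by the mean over the 6 libraries, with open points for the wildtype label, filled points for the mutant label and a bar for each group's mean. *Gata4* stands above the others in every library, and *Isl1* is the lowest on average and has the widest spread.

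Muscle markers were read because several of the factors act in heart muscle. The Myocardial markers (12 of 12 listed, *Myh7* the most abundant, none at 0 throughout) summed to 23460, 25350 and 32630 CPM under the wildtype label and to 19870, 17310 and 22010 CPM under the mutant label. Every mutant-labelled library was lower than every wildtype-labelled one. All 12 markers were fitted lower, 0 called by edgeR and 6 by DESeq2 (which called 4.05% of the genes it gave an adjusted p), and 9 had an unadjusted p under 0.05 in edgeR (16.1% of all genes). In the settings that called factors, edgeR called 7 of the 12 lower without wildtype replicate 1 (5.3% of all genes) and 9 with the replicate block (2.42%), but 0 with wildtype replicates 2 and 3 exchanged in it (0.0746%). In a bulk library fewer muscle cells and less RNA of these genes per cell cannot be told apart. Each factor was therefore also read against the muscle markers inside each library, as the log2 CPM of a factor minus the mean log2 CPM of the 12 markers. For *Nkx2-5* it was −4.33, −4.05 and −4.20 under the wildtype label and −4.04, −4.20 and −4.31 under the mutant label, a difference of 0.01. Relative to the muscle markers *Nkx2-5* was thus level between the labels. *Mef2c* (0.33) and *Zfpm2* (0.35) had overlapping groups on this scale and the opposite sign to their fold changes. *Gata4* was higher relative to the markers by 0.65 and *Gata5* by 0.82, each without overlap of the groups, while *Gata6* (0.64), *Hand1* (0.86), *Hand2* (0.48) and *Isl1* (1.05) overlapped. The mean of the markers itself was lower by 0.45 on the log2 scale, which is a part of each of these differences.

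Cushion and vessel wall markers went partly the other way. The Mesenchymal markers (8 of 8 listed, *Postn* the most abundant, none at 0 throughout) summed to 4595, 3339 and 2409 CPM under the wildtype label and to 5244, 5605 and 4536 CPM under the mutant label, with wildtype replicate 1 just above mutant replicate 3. All 8 were fitted higher, 0 called by edgeR, 1 (*Col1a1*) by DESeq2 and 7 at an unadjusted p under 0.05 (16.1% of all genes). In the settings that called factors, edgeR called 7 of the 8 higher without wildtype replicate 1 (4.15% of all genes) and all 8 with the replicate block (3.18%), but 1 with wildtype replicates 2 and 3 exchanged in it (0.22%). This sum followed the same libraries as *Hand1* and *Gata6*, high in wildtype replicate 1 and low in wildtype replicates 2 and 3. The VSMC markers of vascular smooth muscle (6 of 6, *Acta2* the most abundant, none at 0 throughout) summed to 2663, 3066 and 3428 CPM under the wildtype label and 2638, 2366 and 2688 CPM under the mutant label, with overlap. Of these 6, 3 were fitted higher and 3 lower, 0 called by edgeR and *Myh11* called higher by DESeq2. The Endothelial markers (10 of 10, *Cdh5* the most abundant, none at 0 throughout) summed to 999, 1269 and 1328 CPM against 1100, 1094 and 1206 CPM, with overlap, 2 fitted higher and 8 lower and 0 called by edgeR or DESeq2. The Epicardial markers (8 of 8, *Upk3b* the most abundant, none at 0 throughout) summed to 253, 412 and 316 CPM against 288, 338 and 275 CPM, with overlap, 2 fitted higher and 6 lower and 0 called by edgeR or DESeq2. The part of these cell types in the results for the 9 factors was not tested.

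Nerve markers were read because Isl1 is also made by neurons, among them those that enter the OFT. The Neuronal markers (8 of 8 listed, *Tubb3* the most abundant, none at 0 throughout) summed to 27.5, 25.6 and 12.8 CPM under the wildtype label and to 34.6, 37.0 and 27.7 CPM under the mutant label. Every mutant-labelled library was higher, and replicate 3 was the lowest library of each label, as it was for *Isl1*. The separation rested on *Tubb3*. The other 7 markers, a setting chosen after seeing the data, summed to 17.8, 18.9 and 8.23 CPM against 16.1, 18.7 and 13.1 CPM, with overlap. Of the 8, 6 were fitted higher, with 0 called by edgeR and *Tubb3* by DESeq2. The Neural crest and glia markers (5 of 6 listed had counts, *Erbb3* the most abundant, none of the 5 at 0) summed to 36.4, 23.8 and 23.6 CPM against 33.5, 40.5 and 32.5 CPM. Wildtype replicate 1 was among the mutant-labelled libraries, 4 of 5 were fitted higher, and 0 were called by edgeR or DESeq2. The part of nerve and glia in the values of *Isl1* was not tested.

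Markers of blood and of tissues outside the OFT differed in level between libraries. The Blood markers (10 of 10 listed, *Hba-a2* the most abundant, none at 0 throughout) summed to 5420, 11910 and 10240 CPM under the wildtype label and to 6231, 6175 and 6325 CPM under the mutant label, with all 10 fitted lower, 0 called by edgeR and 4 by DESeq2. Wildtype replicates 2 and 3 held the most blood transcripts and wildtype replicate 1 the fewest. Without that library edgeR called 9 of the 10 Blood markers, 5 of the 5 Liver markers and 2 of the 3 Skeletal muscle markers, all lower (5.3% of all genes were called lower). With the replicate block the counts were 5, 3 and 1 (2.42%), and with wildtype replicates 2 and 3 exchanged in it 0, 1 and 0 (0.0746%). The Liver markers (5 of 5, *Afp* the most abundant, none at 0 in all libraries) summed to 1.33, 93.6 and 25.5 CPM against 2.57, 4.96 and 1.03 CPM, with all 5 fitted lower and 0 called by edgeR or DESeq2. The Macrophage markers (7 of 7, *Csf1r* the most abundant, none at 0 throughout) summed to 101, 155 and 114 CPM against 107, 124 and 128 CPM, with overlap, 3 fitted higher and 4 lower and 0 called by either tool. Liver transcripts were thus high in wildtype replicate 2 above all, and macrophage transcripts overlapped between the labels. The Skeletal muscle markers (3 of 5 had counts, *Myh3* the most abundant) summed to 1.55, 8.84 and 2.71 CPM against 1.5, 1.60 and 1.17 CPM, with all 3 fitted lower and 0 called by either tool. Of the Endoderm markers 6 of 7 had counts, *Cdh1* the most abundant, but *Foxa2* and *Nkx2-1*, at 3 counts or fewer everywhere, were not tested. The 4 tested summed to 0.360, 1.04 and 0.863 CPM against 0.700, 0.747 and 0.318 CPM, with 1 fitted higher and 3 lower and 0 called. The part of endoderm, which also makes Gata4, Gata5 and Gata6, was not tested. Of the 12 marker lists, 2 had sums that did not overlap between the groups, and 10 without wildtype replicate 1, a setting of the sums chosen after seeing the data. Among all genes, 19.6% had groups that did not overlap with all libraries, and 42.7% without wildtype replicate 1. The part of blood, liver and macrophages was not tested.

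The paralogs of the factors were examined as a list of 10 genes, of which 9 had counts, and 4 of these (*Gata1*, *Nkx2-6*, *Mef2b* and *Isl2*) had a mean under 1 CPM. None was called by edgeR (0 of 9) or by DESeq2 (0 of the 5 with an adjusted p), 1 had an unadjusted p under 0.05 (16.1% of all genes), and the median log2 fold change was 0.10 with 7 fitted higher and 2 lower. *Zfpm1*, the FOG paralog of *Zfpm2*, stood at 76.0, 70.0 and 54.4 CPM under the wildtype label and at 101, 102 and 73.5 CPM under the mutant label. Mutant replicate 3 was below wildtype replicate 1, so that the groups overlapped, at a log2 fold change of 0.46 ± 0.15 (SE). With the replicate block *Zfpm1* was the 1 paralog called by edgeR, at an adjusted p of 0.01145 (3.18% of all genes were called higher). With wildtype replicates 2 and 3 exchanged in the block 0 paralogs were called (0.22%). *Gata3* had a log2 fold change of 0.62 ± 0.31 (SE) and was called without wildtype replicate 1, at 1.06 with an edgeR adjusted p of 0.0356, in a range of 0.0356 to 1 over 17 alternatives, and was −0.28 with the Myocardial covariate. Without that library 4.15% of all genes were called higher. *Mef2a*, the paralog of Mef2c in muscle, had −0.14.

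Partners of the factors, a list of 14 that holds E proteins, coactivators, the SRF and myocardin pair, chromatin remodellers and class II histone deacetylases, had 0 genes called by edgeR and 1 by DESeq2. With 5 of 14 at an unadjusted p under 0.05 (16.1% of all genes), 10 were fitted higher and 4 lower, and the median was 0.13. The gene called by DESeq2 was *Hdac7*, a class II deacetylase that binds MEF2 proteins and represses their targets. *Hdac7* stood at 57.4, 68.4 and 66.4 CPM under the wildtype label and at 88.6, 94.0 and 81.3 CPM under the mutant label. Each mutant-labelled library was higher than each wildtype-labelled one. Its log2 fold change was 0.46 ± 0.10 (SE), with an adjusted p of 0.181 by edgeR and 0.0118 by DESeq2, the lowest in a range that reached 0.843 over 17 alternatives. With the GC and length correction it was 0.25. Without wildtype replicate 1 edgeR called 3 of the 14, all higher (4.15% of all genes were called higher), *Tcf12* (an E protein that pairs with HAND factors), *Hdac4* and *Hdac7*. With the replicate block it called 2, *Hdac4* and *Hdac7*, both higher (3.18% of all genes), but 0 with wildtype replicates 2 and 3 exchanged in it (0.22%). *Hdac4* had a log2 fold change of 0.42 with all libraries, *Myocd*, the muscle coactivator of Srf, −0.29, and *Hdac9* −0.21.

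Other genes of the second heart field, a list of 10, had 0 called by edgeR, 0 of the 8 with an adjusted p called by DESeq2 and 0 called without wildtype replicate 1. With 1 of 10 at an unadjusted p under 0.05 (16.1% of all genes), 8 were fitted higher and 2 lower at a median of 0.18, beside 0.01 for all genes. The list was shortened by 1 gene after its values were seen, so that these counts describe the 10 genes left. *Tbx1*, *Fgf8* and *Eya1*, genes of the undivided progenitor pool, had means under 1 CPM. *Prdm1*, a repressor needed in the pharyngeal region and OFT, stood at 1.87, 1.54 and 1.76 CPM under the wildtype label and at 2.90, 2.03 and 3.40 CPM under the mutant label, with no overlap. Its log2 fold change was 0.69 ± 0.25 (SE), with an adjusted p of 0.240 by edgeR. *Six2* had 0.96 ± 0.62 (SE), and 2.04 without wildtype replicate 1. *Fgf10*, a growth factor of the field, had −0.34 ± 0.46 (SE) at 0.796 to 2.99 CPM, and its direction turned, to 0.35, without wildtype replicate 1, its highest library.

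Other cardiac transcription factors, a list of 14 that includes T-box, Iroquois and Hey genes, had 0 called by edgeR and 1 by DESeq2, with 5 at an unadjusted p under 0.05 (16.1% of all genes). The median was −0.16, with 6 fitted higher and 8 lower. *Hey2*, a Notch target and repressor expressed in ventricular myocardium, was the gene called by DESeq2. It stood at 85.5, 91.3 and 109 CPM under the wildtype label and at 72.8, 65.7 and 76.8 CPM under the mutant label, so that each mutant-labelled library was lower. The log2 fold change of *Hey2* was −0.41 ± 0.11 (SE), with an adjusted p of 0.194 by edgeR and 0.0460 by DESeq2, in a range of 0.0124 to 1, and it was −0.10 with the Myocardial covariate. *Irx4*, a ventricular factor, had −0.62 ± 0.20 (SE), *Irx5* −1.06 ± 0.39 (SE) and *Tbx3* 0.62 ± 0.23 (SE). With the replicate block edgeR called *Irx4*, *Irx5* and *Hey2* lower (2.42% of all genes) and *Tbx3* higher (3.18%). With wildtype replicates 2 and 3 exchanged in the block 0 of the 14 were called (0.295%). *Tbx20* stood at 773, 485 and 416 CPM under the wildtype label and at 761, 743 and 688 CPM under the mutant label, with wildtype replicate 1 the highest library of all. Its log2 fold change was 0.39 ± 0.19 (SE), not called by edgeR at an adjusted p of 0.349, and ran from 0.22 to 0.70 with a library left out. *Tbx20* without wildtype replicate 1 was called higher by edgeR at a log2 fold change of 0.70 and an adjusted p of 0.0133 (0.0104 to 1 over 17 alternatives, with the sign turned, at −0.06, with the Myocardial covariate), and *Irx4* and *Hey2* were called lower. Without that library 4.15% of all genes were called higher and 5.3% lower.

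The 12 genes listed as myocardial targets, heart muscle genes tied to GATA, NK2 or MEF2 factors, were all fitted lower. Their median was −0.48, with 0 called by edgeR, 1 of the 11 with an adjusted p called by DESeq2 and 7 at an unadjusted p under 0.05 (16.1% of all genes). With the replicate block edgeR called 9 of the 12 lower (2.42% of all genes were called lower), and 0 with wildtype replicates 2 and 3 exchanged in the block (0.0746%). The gene called by DESeq2 was *Tnni3*, cardiac troponin I, at 532, 805 and 912 CPM under the wildtype label and 464, 400 and 612 CPM under the mutant label. Mutant replicate 3 was above wildtype replicate 1, so that the groups overlapped. *Tnni3* had a log2 fold change of −0.61 ± 0.20 (SE), with an adjusted p of 0.224 by edgeR and 0.0495 by DESeq2, in a range of 0.00262 to 1, and it was 0.02 with the Myocardial covariate. *Hopx*, a homeodomain-only protein downstream of Nkx2-5, had −0.83 ± 0.24 (SE). Without wildtype replicate 1 edgeR called *Hopx* and *Tnni3* lower, 2 of the 12 (5.3% of all genes were called lower). *Bmp10*, a growth factor of trabecular muscle, stood at 10.9, 9.93 and 66.0 CPM under the wildtype label and at 4.07, 1.55 and 36.1 CPM under the mutant label. Replicate 3 was the highest of each label, and the log2 fold change was −1.05 ± 0.96 (SE). These 12 genes are expressed in heart muscle, and the part of the lower Myocardial markers in their values was not tested.

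Of the annotated genes beside the 9 factors, *Neil2*, a DNA glycosylase gene 5066 bases downstream of *Gata4* on the same strand (chr14:63182443-63193856), had the lowest adjusted p between the labels by both edgeR and DESeq2. It stood at 3.51, 2.94 and 3.79 CPM under the wildtype label and at 6.80, 8.06 and 6.87 CPM under the mutant label. The groups lay far apart compared with the spread within either. The log2 fold change of *Neil2* was 1.09 ± 0.17 (SE), with an adjusted p of 0.128 by edgeR and 7.36e-05 by DESeq2 in a range of 7.36e-05 to 0.556 over 17 alternatives. It was called by edgeR without wildtype replicate 1, at an adjusted p of 0.0188. *Gm49390*, 46053 bases upstream of *Gata4*, was under 1 CPM in every library.

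Antisense transcripts overlap 3 of the factors. The kit keeps the strand, but whether the counting used it is not stated, so that values of overlapping genes on opposite strands are uncertain. *Hand2os1*, which overlaps *Hand2* over 3251 bases on the opposite strand and is known as a long noncoding RNA of the embryonic heart, stood at 134, 125 and 115 CPM under the wildtype label and at 158, 166 and 178 CPM under the mutant label. Each mutant-labelled library was higher, whereas *Hand2* itself had overlapping groups. The log2 fold change of *Hand2os1* was 0.42 ± 0.10 (SE), with an adjusted p of 0.181 by edgeR and 0.0130 by DESeq2 in a range of 0.00716 to 0.917, and 0.0206 by edgeR without wildtype replicate 1. A difference between *Hand2os1* and *Hand2* in fold change was not tested. *1010001N08Rik*, which overlaps *Gata6* over 504 bases on the opposite strand, stood at 34.0, 24.1 and 17.7 CPM under the wildtype label and at 35.2, 38.0 and 26.4 CPM under the mutant label. It was high and low in the same libraries as *Gata6*, with a log2 fold change of 0.39 ± 0.21 (SE) and an edgeR adjusted p of 0.383, and 0.67 with 0.0467 without wildtype replicate 1 (0.0175 to 0.998 over 17 alternatives, with the sign turned, at −0.32, with the Myocardial covariate). *Gata5os*, which overlaps *Gata5* over 1843 bases, stood at 0.967, 0.867 and 0.740 CPM under the wildtype label and 1.30, 1.81 and 0.981 CPM under the mutant label. It was higher in each mutant-labelled library, with a log2 fold change of 0.66 ± 0.32 (SE).

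The remaining neighbours were not called by edgeR or DESeq2 with all libraries. Without wildtype replicate 1 edgeR called *Rpl34-ps2*, a pseudogene beside *Isl1*, at −0.52 with an adjusted p of 0.0277, in a range of 0.0277 to 1 over 17 alternatives. With all libraries it was −0.32, from −0.52 to −0.16 with a library left out and −0.06 with the block and the GC and length correction. *Sap30l*, 18488 bases downstream of *Hand1*, had a log2 fold change of −0.13, with each mutant-labelled library below each wildtype-labelled one. *Bnip1* beside *Nkx2-5* had −0.06 and *Gm34030* beside *Hand2* −0.08. The noncoding genes *B230312C02Rik* beside *Gata5* and *Gm17382* beside *Nkx2-5* had 0.27 and 0.63, at 1.5 CPM or less. *2310067P03Rik* beside *Mef2c* had 0 counts in 3 of the 6 libraries and at most 0.203 CPM in the others. For the pseudogenes *Gm12244* beside *Hand1*, *4930555K19Rik* beside *Zfpm2* and *Gm48067* beside *Mef2c* the values were −0.63, 0.30 and −0.19. Other annotated neighbours, such as *Rbbp8nl* beside *Gata5*, had no counts listed.

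The genes whose levels were most like those of a factor across the 6 libraries were taken from 11114 protein-coding genes averaging 5 CPM or more, by Pearson's r of log2 CPM, as a description. All 6 libraries, and so the label and the place of wildtype replicate 1, are shared by every gene, and with 6 points many genes reach a high r. For *Gata4* the closest were *Ap3d1* (r = 0.994), *Notum* (0.994) and *Tsc1* (0.993), and for *Gata5* *Clk1* (0.990), *Ppfibp1* (0.990) and *Khdc4* (0.989). *Gata6* was closest to *Zfp608* (0.999), *Hdlbp* (0.998) and *Poglut1* (0.996), and *Hand1* to *Sertad4* (0.998), *Sft2d2* (0.997) and *Skil* (0.997). These 2 factors had 362 and 490 genes with an r over 0.95. The number was 299 for *Nkx2-5*, 139 for *Isl1*, 134 for *Gata5*, 51 for *Gata4*, 37 for *Mef2c* and 20 for *Zfpm2*. *Nkx2-5* was closest to *Coq2* (0.997), *Eno1b* (0.996) and *Triap1* (0.995), and *Isl1* to *Emilin3* (0.995), *Bmp4* (0.995) and *Pcdhb19* (0.993). *Mef2c* was closest to *Vangl1* (0.992), *Zc3h8* (0.989) and *Klhl8* (0.985), and *Zfpm2* to *Vps53* (0.987), *Pigc* (0.985) and *Lrrc2* (0.983). *Hand2* resembled few genes, with 2 over 0.95, *Zfp251* (0.965) and *Bambi* (0.956), and then *Csrp2* (0.949).

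Because these factors are known to act on each other's genes, the DNA just before their RefSeq starts was searched for the motifs that they bind. RefSeq promoters of the GRCm38.p6 build were available for 5 of the 9 genes, 7 promoters in all, 3 of them of *Mef2c*, which are not shown. The motifs were GATAA for GATA factors, CANNTG for bHLH factors, AAGTG for Nkx2-5, and CTA and TAG with 4 bases of any kind between them for MEF2 factors, each on both strands within the 250 bases upstream. They are short and common, in 22.6%, 66.2%, 40.7% and 3.2% of the 32851 promoters searched. Printed are *Gata5* and *Nkx2-5*, called without wildtype replicate 1, *Isl1*, called with the replicate block, and *Hand2*, as the neighbour of *Hand2os1*. Each is written 5′ to 3′ on the gene's strand, with motif matches in capitals and without bases of the gene's own annotated exons. The *Hand2* stretch lies within the span of *Hand2os1* and the *Gata5* stretch within that of *Gata5os*. The *Nkx2-5* stretch precedes a RefSeq start inside the annotated span of the gene, so that it is not upstream of the whole gene. The places are chr2:180334700-180334929 (minus) for *Gata5*, chr8:57320733-57320982 (plus) for *Hand2*, chr17:26841609-26841815 (minus) for *Nkx2-5* and chr13:116309690-116309938 (minus) for *Isl1*.
*Gata5*: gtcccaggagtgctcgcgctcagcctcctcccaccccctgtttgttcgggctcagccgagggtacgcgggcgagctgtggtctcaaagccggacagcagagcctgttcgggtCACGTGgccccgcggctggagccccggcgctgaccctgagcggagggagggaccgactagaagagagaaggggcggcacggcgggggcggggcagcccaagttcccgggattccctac
*Hand2*: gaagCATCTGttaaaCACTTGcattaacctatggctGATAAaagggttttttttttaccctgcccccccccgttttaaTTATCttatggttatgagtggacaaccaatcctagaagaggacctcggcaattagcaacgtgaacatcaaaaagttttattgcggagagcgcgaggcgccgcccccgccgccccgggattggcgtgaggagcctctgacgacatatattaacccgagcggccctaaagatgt
*Nkx2-5*: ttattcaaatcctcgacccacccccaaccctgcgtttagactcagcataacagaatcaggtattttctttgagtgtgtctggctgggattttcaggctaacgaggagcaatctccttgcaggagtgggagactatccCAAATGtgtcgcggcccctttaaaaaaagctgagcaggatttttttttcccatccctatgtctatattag
*Isl1*: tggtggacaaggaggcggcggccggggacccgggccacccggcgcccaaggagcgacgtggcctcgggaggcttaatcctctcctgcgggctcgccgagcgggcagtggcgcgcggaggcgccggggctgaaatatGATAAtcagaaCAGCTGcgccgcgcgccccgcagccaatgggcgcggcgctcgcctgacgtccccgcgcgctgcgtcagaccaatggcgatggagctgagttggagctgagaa

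*Gata5* holds 1 CANNTG, read CACGTG, and *Nkx2-5* 1, read CAAATG. *Isl1* holds 1 GATAA and 1 CANNTG, read CAGCTG. *Hand2* holds GATAA once on each strand (TTATC on the other) and 2 CANNTG, read CATCTG and CACTTG, the latter overlapping 1 AAGTG on the opposite strand. None of the 4 holds the MEF2 motif in this window. A match describes the letters and shows no binding, and binding of these factors was not measured in these libraries.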

How the data were processed

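The deposited values are read counts on the exons of each gene, not normalized, which the authors made after alignment to mm10 with TopHat2 2.1.0. Groups follow the labels, and for wildtype replicates 2 and 3 titles and descriptions disagree on the library number. Genes with 5 or fewer reads in total were left out (620 of 28777). Tests were run with edgeR 4.0.16 (TMM, quasi-likelihood test, Benjamini-Hochberg over all genes), DESeq2 1.42.0 (Wald test) and limma 3.58.1 (voom) in R 4.3.3, and in Python 3.11.15 with scipy 1.17.1 (two-sided exact permutation tests of the ratios) and matplotlib 3.10.9. Positions and lengths are from GENCODE M21.

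The members and lists were chosen with earlier results of these data known. The lists are paralogs, partners, second heart field, other cardiac factors and myocardial targets, and the markers Myocardial, Endothelial, VSMC, Mesenchymal, Epicardial, Blood, Neuronal, Neural crest and glia, Endoderm, Liver, Macrophage and Skeletal muscle. Named are the 9 factors, *Notch1*, *Nos3*, the most abundant gene of each marker list, neighbouring genes, and up to 3 genes most alike. Of each other list, genes called by edgeR or DESeq2 are named, and up to 2 with the largest increase and 2 with the largest decrease at a mean of at least 1 CPM. Genes under 1 CPM, genes called without wildtype replicate 1 and *Col1a1* and *Myh11* were named after their values were seen. *Nkx2-3*, *Foxd3*, *Shh*, *Myf5* and *Pax7* had no counts listed and were not analysed here. The second heart field list was shortened by 1 gene after its values were seen, for a reason apart from them.

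The alternatives were DESeq2's test, limma-voom, DESeq2's size factors, library size only, no filter, filterByExpr, a block on the replicate number (also with wildtype replicates 2 and 3 exchanged), a correction for GC content and length, both together, the mean of the Myocardial markers as a covariate, and each library left out in turn. Others were the longest transcript as the length and a pseudocount of 0.5 CPM in the ratios.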

Additional observations from a re-analysis of the deposited data

How the results depend on the processing

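The fold changes of the 9 factors were refitted under 17 alternatives, 153 values in all. Of these, 136 kept their direction and their side of the threshold, 7 kept the direction and passed it, and 10 changed sign. For the changes given here the cause was not tested.

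With the replicate block edgeR called 2 of the 9 factors, 16 of the 59 related genes, 1577 genes in all and 2 targeted genes, in place of 0, 0, 6 and 1. With the block and the GC and length correction the numbers were 2, 20, 2075 and 2. With the block and wildtype replicates 2 and 3 exchanged, as the descriptions number them, 0 factors, 0 related genes, 83 genes and 2 targeted genes were called, so that the calls of factors and related genes were lost. Replicate numbers were not taken to pair the libraries. Correlations of same-number deviations were 0.096, 0.159 and 0.42, but wildtype replicate 1 correlated best with mutant replicate 2 (0.277). The pairs made by the exchange had −0.121 (wildtype replicate 2 with mutant replicate 3) and −0.441 (wildtype replicate 3 with mutant replicate 2). By DESeq2 742 genes, 3 related genes and 2 targeted genes were called. With the Myocardial covariate 3 genes were called. With the GC and length correction, as with that covariate, 0 targeted genes were called. Leaving out each library gave 1 to 2593 genes, 0 to 3 factors, 0 to 9 related genes and 0 to 2 targeted genes, the highest of each without wildtype replicate 1.

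The median of the factors, 0.18, was 0.04 with the GC and length correction, 0.06 with block and correction and −0.09 with the Myocardial covariate. With that covariate the signs of *Gata6* (−0.17), *Hand1* (−0.09), *Hand2* (−0.17), *Mef2c* (0.04) and *Isl1* (−0.91) turned. The covariate, lower in every mutant-labelled library, is partly confounded with the label in that fit. *Zfpm2* was 0.01 with library size only. *Hand2* was −0.06 with the GC and length correction, −0.06 with block and correction, and −0.04 to 0.09 over the left-out libraries. With the longest transcript 4 of 9 factors kept their place by level. Without wildtype replicate 1, a setting chosen after seeing the data, 5 of 6 ratios and 10 of 12 marker sums did not overlap between groups, against 1 and 2 with all libraries. Among all genes, 42.7% did not overlap without that library, against 19.6% with all libraries. With *Tubb3* left out of the Neuronal sum, also chosen after seeing the data, 1 marker sum did not overlap. The split of the called genes between higher and lower also moved, from 83.3% higher with all libraries to 43.9% without wildtype replicate 1.

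The errors given hold the counting and the differences among libraries. How the tissue was cut is not part of them.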
